A study of Mus musculus with 9 samples.

Results

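The presynaptic active zone scaffold genes described here are 10 genes chosen by protein family: the Munc13 genes Unc13a, Unc13b and Unc13c, the RIM genes Rims1 and Rims2, the Bassoon and Piccolo genes Bsn and Pclo, the ELKS genes Erc1 and Erc2, and the liprin-alpha gene Ppfia2. They were taken by symbol from a table of 31052 genes, by a rule that uses no measured value. All 10 were in the table, and 9 of them passed the filter on low values that left 15225 genes for testing, the exception being Unc13c. The study sequenced nuclear RNA of pyramidal cells, the excitatory output neurons of the mouse hippocampus, in 5 place and 4 silent libraries. Neurons were imaged in mice that moved through space, and were classed as place cells, a type known for firing at a given location, or as silent cells. Nuclei of each class were then marked with light and isolated. Every library in both groups carries the genotype label WT and was prepared with a low-input kit for polyadenylated RNA (SMART-Seq mRNA LP). The labels used here give no age, and they do not state whether each library comes from a separate animal, so the p-values measure only the spread between these libraries.

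The active zone is the patch of presynaptic membrane where synaptic vesicles dock, are primed and fuse. Munc13 proteins prime docked vesicles by opening syntaxin for assembly with the other fusion proteins. RIM proteins bind the vesicle protein Rab3, recruit Munc13 and tether calcium channels close to the release site, while Bassoon, Piccolo, ELKS and liprin-alpha proteins form the wider scaffold that holds these parts together. The RNAs measured here are those in the nucleus of the cell that makes the proteins, far from most of its terminals.

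Levels are given in RPM, the reads of a gene per 1000000 reads of the library after scaling the libraries to a common depth. Depth, in units of 1000000 reads, ran from 15.3 to 21.975 in place libraries and from 14.0 to 22.4 in silent libraries, and 3 reads corresponded to 0.136 to 0.199 RPM in place and 0.133 to 0.213 RPM in silent libraries. Summed over 7 excitatory neuron markers, levels were 3310 to 4164 RPM in place and 3310 to 4553 RPM in silent libraries, and Slc17a7, the vesicular glutamate transporter of these neurons, was read in all 9 libraries. Markers of other cells were also present. The 11 oligodendrocyte markers summed to 1511, 2000, 3532, 312 and 198 RPM in place replicates 1 to 5, against 585, 229.8, 359 and 118 RPM in silent replicates 1 to 4. Astrocyte markers reached 2550 RPM in place replicate 3, against 169 to 284 RPM in the other place libraries and 207 to 506 RPM in silent libraries. The interneuron markers reached 972 RPM in silent replicate 3, where Vip alone stood at 639.8 RPM, while the other libraries lay between 115 and 468 RPM. Place replicate 3, silent replicate 1 and silent replicate 4 had been set apart from the rest by principal components in earlier work on these data, and results are given below with and without them where they move.

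The 10 genes together took between 0.150% and 0.192% of the reads of a library. Their summed level was 1951, 1660.4, 1643, 1588 and 1659.7 RPM in place replicates 1 to 5, against 1495, 1856, 1594 and 1736 RPM in silent replicates 1 to 4. The sums averaged 1700.3 ± 143 RPM in place (SD, n = 5) and 1670.4 ± 158 RPM in silent libraries (SD, n = 4). The ranges overlapped over most of their width, so the total scaffold transcript differed between the groups by less than the spread between libraries.

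To compare genes with each other, levels were divided by the length of the gene's exons, giving RPM per kb. On this scale Ppfia2 was the highest of the 10, with a level of 48.1 ± 12.4 RPM per kb over all libraries (SD, n = 9). Erc2 followed at 31.0 ± 9.31 RPM per kb and Unc13a at 26.0 ± 2.16 RPM per kb. Ppfia2 was above Erc2 in 7 of the 9 libraries, the exceptions being place replicate 1 and silent replicate 3, and Erc2 was above Unc13a in 7. Rims1 and Rims2 were next, with levels of 16.4 ± 3.94 and 14.5 ± 4.49 RPM per kb, and this pair was not separated, since Rims1 was the higher gene in 3 libraries only. Pclo had a level of 11.0 ± 2.09 RPM per kb, above Bsn in 7 libraries. Bsn at 7.34 ± 3.61 and Unc13b at 7.31 ± 3.09 RPM per kb were again not separated, with Bsn higher in 5 libraries. Erc1 had 5.15 ± 2.07 RPM per kb, and Unc13c was at the bottom in all 9 libraries. The order below the 3 highest genes depended on which length was used. With the median length of each gene's transcripts, chosen after seeing the data, Unc13b had a level of 19.9 RPM per kb and moved above Rims1 at 18.4 RPM per kb. On that scale Rims2 at 24.0 RPM per kb also lay above Rims1, and Erc1 at 9.32 RPM per kb above Bsn at 7.34 RPM per kb, while Ppfia2, Erc2 and Unc13a stayed in that order at the top with levels of 59.7, 46.1 and 33.7 RPM per kb.

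**Figure D1:**
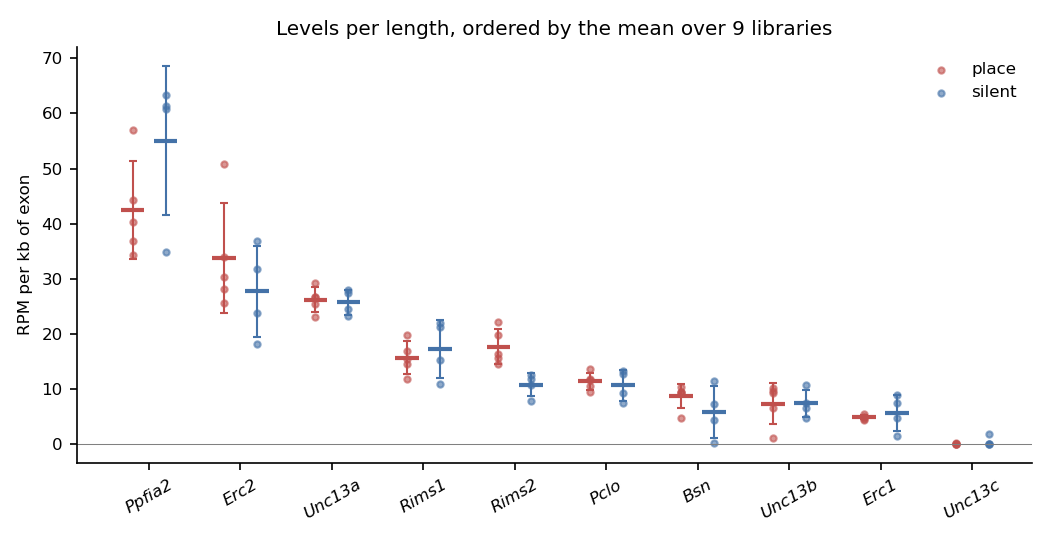
Level of each gene in RPM per kb of exon (vertical axis), ordered from left to right by the mean over all 9 libraries. Dots are libraries, place (red) to the left of silent (blue), and bars with whiskers are the group mean ± SD, left out for Unc13c, which had reads in few libraries. Ppfia2, Erc2 and Unc13a stand highest and Unc13c lies at or near 0.

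Place and silent libraries were compared gene by gene with limma, a linear model fitted to all 15225 tested genes on the log2(value + 1) scale, and p-values were adjusted over all of these genes by the Benjamini-Hochberg method. A log2 fold is the mean log2 value of place libraries minus that of silent libraries. A positive one means a higher mean in place on the log2 scale, where a single low library weighs more than in mean RPM. For Erc1 the fold was 0.08, although mean RPM was lower in place (47.3) than in silent libraries (54.7). None of the 9 tested scaffold genes passed an adjusted p of 0.05 in either direction, and none of the 15225 genes did (0.00%), while voom, a limma variant on the recovered reads, called 4 genes and no scaffold gene. Without adjustment, 1 of the 9 had p under 0.05, beside 771 of all genes tested (5.06%), and that 1, Rims2, was higher in place, as were 577 of all genes (3.79%). The log2 fold was positive for 6 and negative for 3 of the 9, and its median was 0.08, beside a median of 0.20 over all tested genes, of which 59.1% were positive. The ranges of place and silent libraries overlapped in 9 of the 10 genes. Rims2 was the exception, with every place library above every silent library, a pattern shown by 198 of the 15225 tested genes (1.30%), while 288 did not overlap in either direction (1.89%). In bulk libraries such as these, fewer cells of a type and less RNA per cell cannot be told apart in any of these values.

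**Figure D2:**
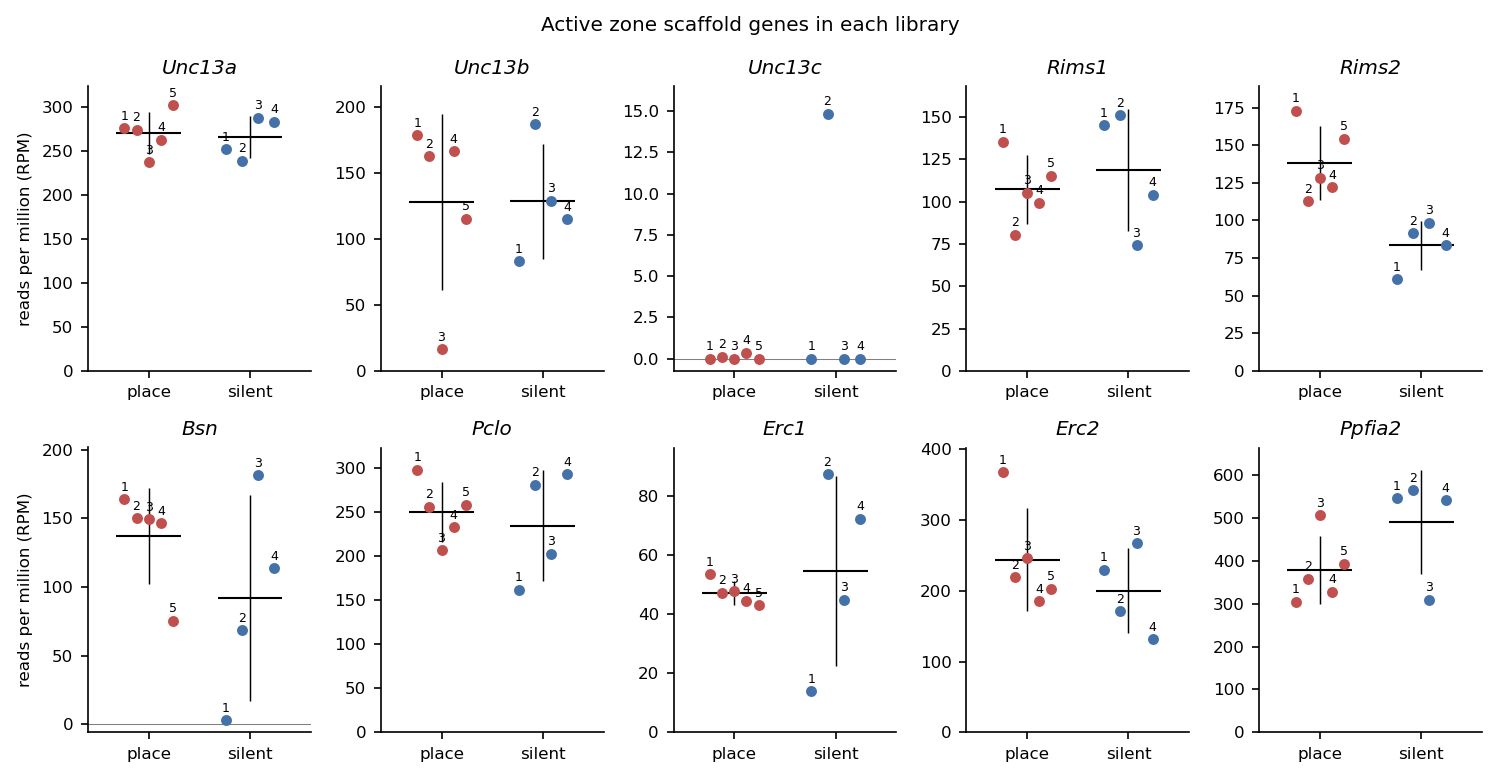
Level of each of the 10 genes in every library, in RPM (vertical axis, a separate scale per gene), with place libraries (red) to the left of silent libraries (blue) and the replicate number beside each dot. Horizontal lines are group means and vertical lines ± SD, left out for Unc13c. Only Rims2 shows no overlap, with place libraries from 113 to 173 RPM and silent libraries from 60.8 to 98.4 RPM.

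Unc13a, which encodes Munc13-1, the main priming factor of forebrain glutamatergic synapses, was the steadiest of the scaffold genes. Its level was 275, 274, 237, 263 and 302 RPM in place replicates 1 to 5, against 252, 239, 287 and 283 RPM in silent replicates 1 to 4. The silent libraries fell inside the range of the place libraries, and the group means were 270.1 ± 23.5 RPM in place (SD, n = 5) and 265 ± 23.7 RPM in silent libraries (SD, n = 4). The log2 fold was 0.03 (SE 0.18, limma, adjusted p = 0.990), with a 95% interval from −0.38 to 0.43. Unc13b encodes Munc13-2, a second priming factor that shares glutamatergic terminals with Munc13-1. It stood at 179, 163, 16.7, 167 and 115 RPM in place replicates 1 to 5, against 83.4, 187, 129 and 115 RPM in silent replicates 1 to 4. Place replicate 3 was far below all other libraries, at 315 reads, and the other 8 libraries of both groups were intermixed. Its log2 fold was −0.32 (SE 0.63, limma, adjusted p = 0.942), and without place replicate 3 it was 0.32, while without the 3 libraries set apart it was −0.02. That library also had the highest astrocyte and oligodendrocyte sums of the 9, and their part in its low Unc13b level was not tested.

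Unc13c encodes Munc13-3, best known from cerebellar granule cells. It had 0, 2, 0, 8 and 0 reads in place replicates 1 to 5, against 0, 294, 0 and 0 reads in silent replicates 1 to 4. Silent replicate 2 alone held 14.8 RPM, and the other libraries lay at or below 0.364 RPM. A library without a read allows a level of up to the 3-read floor given above, for counting error only. The gene did not pass the filter and was not tested. In silent replicate 2 the astrocyte marker sum was 506 RPM, against 207 to 273 RPM in the other silent libraries. Place replicate 3 had the highest astrocyte sum, 2550 RPM, and 0 Unc13c reads. Silent replicate 2 also had the highest levels of the interneuron markers Reln, at 142 RPM, and Sst, at 109 RPM, while Vip and Npy had no read there. Its interneuron marker sum was 448 RPM. Silent replicate 3 had the highest interneuron sum, 972 RPM, and 0 Unc13c reads. The part of astrocyte or interneuron RNA in the Unc13c reads was not tested.

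The start regions of the highest and lowest Munc13 genes are shown because these genes differ most in level. They are the RefSeq promoters on the minus strand of build GRCm38.p6, running from 250 bases before the start to 50 after it, with each CG dinucleotide in capitals: Unc13a at chr8:71671708-71672007 and Unc13c at chr9:73968988-73969287.
Unc13a: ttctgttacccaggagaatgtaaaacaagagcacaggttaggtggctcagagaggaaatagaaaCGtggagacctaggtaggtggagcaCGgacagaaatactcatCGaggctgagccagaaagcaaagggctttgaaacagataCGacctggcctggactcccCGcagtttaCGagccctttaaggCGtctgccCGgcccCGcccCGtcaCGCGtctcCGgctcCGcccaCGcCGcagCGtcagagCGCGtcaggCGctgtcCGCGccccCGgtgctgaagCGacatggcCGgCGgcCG
Unc13c: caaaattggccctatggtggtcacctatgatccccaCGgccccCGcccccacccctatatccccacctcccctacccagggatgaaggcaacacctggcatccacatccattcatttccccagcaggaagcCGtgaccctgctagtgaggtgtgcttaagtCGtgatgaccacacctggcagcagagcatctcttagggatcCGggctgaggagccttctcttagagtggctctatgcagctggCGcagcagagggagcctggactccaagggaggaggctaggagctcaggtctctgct
The Unc13a window held 27 CG dinucleotides, a number reached by 15.5% of the 32851 promoters of this length, and the Unc13c window held 6, reached by 56.4% of them. The median promoter held 7. Of the 10 scaffold genes 9 had a promoter in the table, and all but Unc13c held 20 or more, up to 38 in Bsn (reached by 4.95% of promoters) and 46 in Erc1 (reached by 1.65%). Because CG reads the same on both strands, each site was counted once. These counts describe the sequence only, and methylation or binding there was not measured.

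Rims1 and Rims2 encode RIM1 and RIM2, which overlap in function at release sites. Rims1 stood at 135, 80.4, 105, 99.4 and 115 RPM in place replicates 1 to 5, against 145, 151, 74.3 and 104 RPM in silent replicates 1 to 4. The silent libraries included both the highest levels and the lowest, and the groups were intermixed. For Rims1 the log2 fold was −0.11 (SE 0.32, limma, adjusted p = 0.964), with a 95% interval from −0.80 to 0.58.

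Rims2 had the clearest separation of the 10 genes, although it did not pass the adjusted threshold. Its level was 173, 113, 128, 122 and 154 RPM in place replicates 1 to 5, against 60.8, 91.7, 98.4 and 83.4 RPM in silent replicates 1 to 4. The lowest place library, replicate 2, lay above the highest silent library, replicate 3. The means were 138 ± 24.8 RPM in place (SD, n = 5) and 83.6 ± 16.4 RPM in silent libraries (SD, n = 4), a ratio of 1.65. The log2 fold was 0.73 (SE 0.30, 95% interval 0.08 to 1.38), with an unadjusted p of 0.0316 and an adjusted p of 0.861 by limma. It was positive under all 20 alternative settings, from 0.54 to 1.10. Without the 3 libraries set apart it was 0.54, with an unadjusted p of 0.123 in the limma fit. Oligodendrocyte markers, of which 10 of 10 tested had a positive fold, summed to 198 to 3532 RPM in place and 118 to 585 RPM in silent libraries. CA3 pyramidal markers, of which 6 of 6 tested had a positive fold, summed to 98.2 to 251 RPM in place and 13.5 to 136 RPM in silent libraries. The part of either in the Rims2 values was not tested.

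Bsn and Pclo encode Bassoon and Piccolo, very large scaffold proteins that organise the vesicle cluster behind the release site. Bsn stood at 164, 150.2, 149.5, 146 and 75.4 RPM in place replicates 1 to 5, against 2.99, 68.8, 181 and 114 RPM in silent replicates 1 to 4. Silent replicate 1, with 42 reads, was by far the lowest library, and silent replicate 3 was the highest. The means were 137 ± 35.2 RPM in place (SD, n = 5) and 91.7 ± 75.1 RPM in silent libraries (SD, n = 4), a ratio of 1.495. With all libraries its log2 fold was 1.54 (SE 0.95, 95% interval −0.52 to 3.61, limma, adjusted p = 0.861), and it was 0.24 without silent replicate 1 and 0.20 without the 3 libraries set apart. That library was also the shallowest, with a depth of 14.0 in units of 1000000 reads, and the one with the fewest genes detected, 14176 against 15515 to 20990 in the others, and with the number of genes detected as a covariate the fold was 0.54 (limma, adjusted p = 0.989). Place replicate 1, the next shallowest library with a depth of 15.3 in the same units, held 2474 Bsn reads. The part of depth in the Bsn level of silent replicate 1 was not tested. Pclo stood at 298, 256, 206, 232 and 258 RPM in place replicates 1 to 5, against 162, 281, 203 and 292 RPM in silent replicates 1 to 4. Silent libraries held the lowest values and values near the top, and the groups overlapped. For Pclo the log2 fold was 0.12 (SE 0.24, limma, adjusted p = 0.941), with a 95% interval from −0.39 to 0.64.

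Erc1 and Erc2 encode the ELKS proteins, which bind RIM and Bassoon. Erc1 is expressed in many tissues and Erc2 mainly in brain. Erc1 stood at 53.6, 47.4, 47.9, 44.6 and 43.1 RPM in place replicates 1 to 5, against 14.1, 87.4, 45.0 and 72.4 RPM in silent replicates 1 to 4. Place libraries lay close together, with a mean of 47.3 ± 4.02 RPM (SD, n = 5), while silent libraries lay on both sides of them, with a mean of 54.7 ± 32.3 RPM (SD, n = 4). The log2 fold of Erc1 was 0.08 (SE 0.56, limma, adjusted p = 0.992) and was −0.48 without silent replicate 1, the lowest library. Its sign was also negative, at −0.42, without the 3 libraries set apart. Erc2 stood at 368, 219, 246, 185 and 203 RPM in place replicates 1 to 5, against 229.9, 172, 267 and 132 RPM in silent replicates 1 to 4. Place replicate 1 was the highest and silent replicate 4 the lowest, with the other libraries intermixed. For Erc2 the log2 fold was 0.30 (SE 0.28, limma, adjusted p = 0.862), with a 95% interval from −0.32 to 0.91. Without the 3 libraries set apart it was 0.13.

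Ppfia2 encodes liprin-alpha2, which links the scaffold to receptor phosphatases, ELKS and RIM, and is enriched in neurons. It stood at 304, 358, 506, 328 and 393 RPM in place replicates 1 to 5, against 545, 564, 309 and 540.3 RPM in silent replicates 1 to 4. All silent libraries but replicate 3 lay above all place libraries, and silent replicate 3 lay among the lowest. The means were 378 ± 79.1 RPM in place (SD, n = 5) and 489.6 ± 121 RPM in silent libraries (SD, n = 4). The log2 fold of Ppfia2 was −0.36 (SE 0.23, 95% interval −0.86 to 0.15, limma, adjusted p = 0.861), and −0.56 without silent replicate 3. That library is also the one with 639.8 RPM of Vip, a marker of a class of interneurons. Its other interneuron markers were mixed. Adarb2 at 105 RPM and Slc32a1 at 12.7 RPM were the highest of all libraries, and Gad2 at 64.9 RPM was below place replicate 5 only. Gad1 was at 42.2 RPM, below place replicates 2 and 3 and silent replicates 2 and 4. Sst, Npy, Lhx6 and Reln had no read. Place replicate 1 had a lower Ppfia2 level and no Vip read. The part of interneuron RNA in the Ppfia2 level of silent replicate 3 was not tested.

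**Figure D3:**
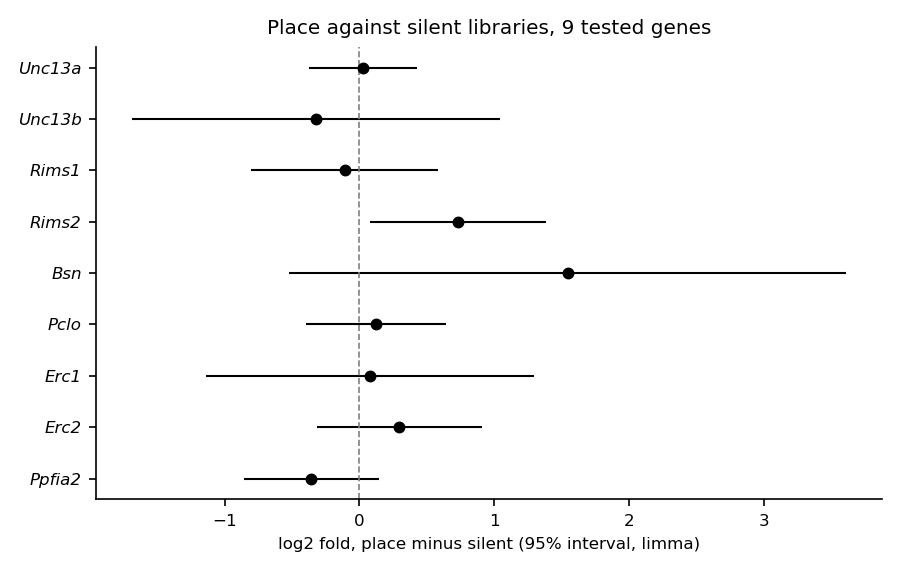
Log2 fold of the 9 tested genes, place minus silent (horizontal axis), with 95% intervals from limma. The interval of Rims2, from 0.08 to 1.38, lies above 0 before adjustment for the number of genes tested, and the intervals of the other 8 include 0, the widest being that of Bsn.

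How far a fold rested on a single library differed between the genes. With 1 library left out at a time, the log2 fold of Rims2 ranged from 0.59 to 0.82, that of Erc2 from 0.11 to 0.45 and that of Ppfia2 from −0.56 to −0.28. The sign was kept each time for these 3 genes and for Bsn, whose fold ranged from 0.24 to 2.21. Unc13a, Rims1 and Pclo stayed near 0, within −0.32 and 0.24. Unc13b and Erc1 took both signs, from −0.54 to 0.32 and from −0.48 to 0.40.

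**Figure D4:**
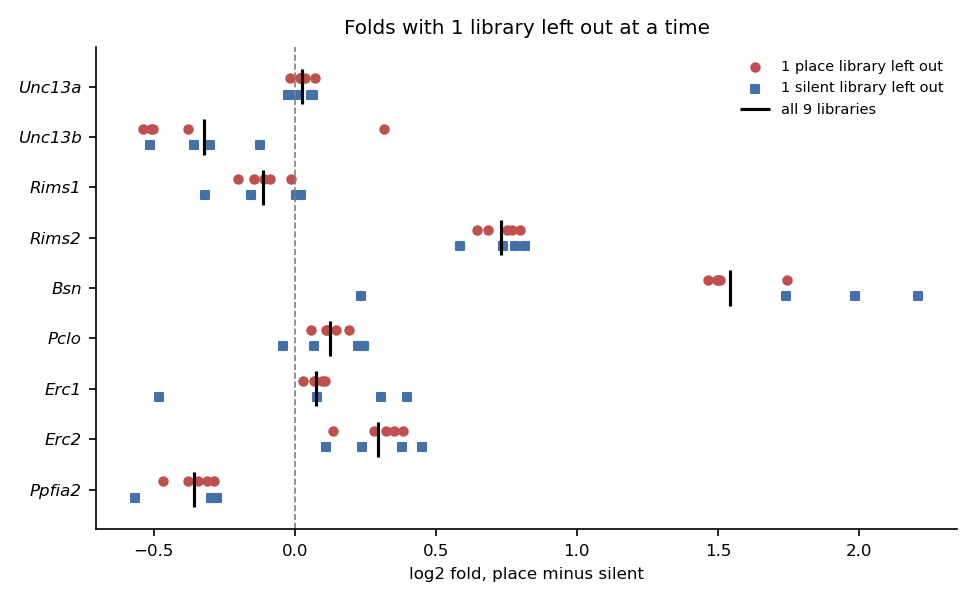
Log2 fold of each tested gene, place minus silent (horizontal axis), recomputed with 1 library left out: red circles for a place library, blue squares for a silent library, and a black bar for the fit with all 9. The fold of Bsn is 0.24 when silent replicate 1 is left out, and Rims2 stays between 0.59 and 0.82.

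Most of the scaffold genes varied less between libraries than the median tested gene. The SD of the log2 level over the 9 libraries was 0.121 for Unc13a, and 2 of the 15225 tested genes had a smaller one. It was 0.292 for Pclo, 0.356 for Rims1, 0.375 for Ppfia2, 0.419 for Erc2 and 0.464 for Rims2. Larger values were found for Erc1 at 0.730, Unc13b at 1.08 and Bsn at 1.86, and in these 3 genes a single low library stood out. The median over the 9 tested scaffold genes was 0.419, beside 1.73 over all tested genes. Of the 9, 8 lay below the median of all tested genes, and Bsn lay above it. High counts narrow this SD, and the scaffold genes are well expressed, with mean levels above those of 68.0% (Erc1) to 98.3% (Ppfia2) of tested genes, so the 2 medians were not compared by a test.

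The genes did not form a single block across libraries. Over the 9 libraries the log2 levels of Pclo and Erc1 had a Pearson correlation of 0.837, those of Bsn and Erc1 one of 0.780 and those of Rims2 and Bsn one of 0.685. Silent replicate 1 was the lowest library for each of these genes, and the values given include it. Rims2 and Ppfia2 ran opposite, with a correlation of −0.619, as did Erc2 and Ppfia2 with −0.577. These values are descriptions of 9 points that share each library's depth and cell composition. The mean of the members' standardized log2 levels was highest in place replicate 1, at 0.654, and lowest in silent replicate 1, at −0.811. The 5 tested genes that followed this mean most closely were Smim8, Pfdn5, Erlin1, Scai and Myo9a, with Pearson correlations of 0.957, 0.945, 0.941, 0.931 and 0.923 over the same 9 libraries. Like the mean itself, all 5 were highest or second highest in place replicate 1 and lowest in silent replicate 1, and Smim8, for example, stood at 66.6 and 1.14 RPM there. This likeness follows from choosing the 5 as the best matches among the tested genes, and is no further result.

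Ratios within a gene family compare paralogs inside one library and do not depend on its depth. Rims2 over Rims1, each in RPM per kb, was 1.12, 1.23, 1.07, 1.08 and 1.17 in place replicates 1 to 5, against 0.367, 0.532, 1.16 and 0.702 in silent replicates 1 to 4. The ratio was above 1 in all place libraries and in silent replicate 3, so the groups overlapped. It averaged 1.13 ± 0.0680 in place (SD, n = 5) and 0.690 ± 0.342 in silent libraries (SD, n = 4). Unc13b over Unc13a averaged 0.274 ± 0.144 in place and 0.289 ± 0.118 in silent libraries, and stayed below 1 in all 9. Erc1 over Erc2 also stayed below 1, with 0.149 ± 0.0261 in place and 0.237 ± 0.1798 in silent libraries. Bsn over Pclo averaged 0.771 ± 0.224 in place and 0.535 ± 0.514 in silent libraries, and was above 1 only in place replicate 3 and silent replicate 3. Another choice of length multiplies a ratio, and its SD, by the same factor in all 9 libraries, so which libraries lie above 1 depends on the exon lengths used, while their order and the overlap of the groups do not.

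**Figure D5:**
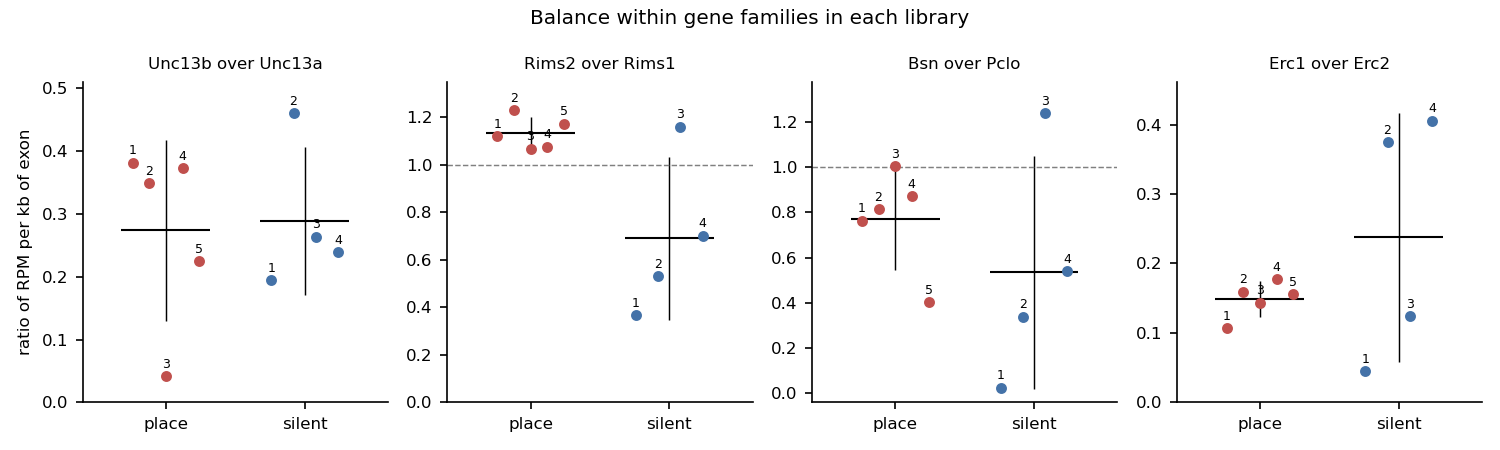
Ratio of the RPM per kb levels of 2 genes of a family in each library (vertical axis, a separate scale per panel), with place libraries (red) to the left of silent libraries (blue). Horizontal lines are means, vertical lines ± SD, and the dashed line marks 1. Rims2 over Rims1 lies between 1.07 and 1.23 in place libraries and between 0.367 and 1.16 in silent libraries.

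Other genes of the release machinery were read from 3 further lists, and none of their members passed an adjusted p of 0.05 by limma. Of the 12 active zone relatives, which are paralogs of the scaffold genes and RIM-binding proteins, 10 were tested, with 7 positive and 3 negative log2 folds and a median of 0.42. Rimbp2, which couples RIM to calcium channels, had the smallest p among them, with 239 ± 53.7 RPM in place (SD, n = 5) and 180.2 ± 87.0 RPM in silent libraries (SD, n = 4). Unc13d and Rims3, the next of that list, were near the floor in most libraries. Unc13d ranged from 0.214 to 12.2 RPM in place and from 0 to 12.5 RPM in silent libraries, and Rims3 from 0 to 8.18 RPM in place and from 0 to 0.656 RPM in silent libraries.

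Of the 28 partner genes (Rab3 and its effectors, calcium channels, adaptors, and liprin, Piccolo and Bassoon binders) 27 were tested, with 13 positive and 14 negative folds and a median of −0.03. Git2, a relative of the liprin and Piccolo binder GIT1, stood at 86.2, 92.4, 86.4, 63.1 and 82.5 RPM in place replicates 1 to 5, against 58.3, 43.2, 37.7 and 23.6 RPM in silent replicates 1 to 4. Every place library was above every silent library, with a log2 fold of 1.07 (SE 0.41, limma, adjusted p = 0.861). Cask, a scaffold kinase that binds liprin-alpha and neurexin, stood at 55.1, 103, 84.9, 66.7 and 78.5 RPM in place replicates 1 to 5, against 26.0, 52.2, 48.9 and 15.2 RPM in silent replicates 1 to 4. Its groups did not overlap either, and its log2 fold was 1.26 (SE 0.49, limma, adjusted p = 0.861). Git2 and Cask are named for having the smallest p of the list. Over all 15225 tested genes, 198 (1.30%) had every place library above every silent library. By limma, 2 of the 27 tested partners had an unadjusted p under 0.05, beside 771 of all genes (5.06%). Rab3c, a vesicle GTPase that RIM binds, had 149 ± 36.5 RPM in place (SD, n = 5) and 198 ± 34.2 RPM in silent libraries (SD, n = 4), with overlapping ranges.

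Of the 20 priming and fusion genes 18 were tested, with 8 positive and 10 negative folds and a median of −0.02. Stxbp5, or tomosyn, which restrains fusion by binding syntaxin, had 171 ± 47.3 RPM in place (SD, n = 5) and 274 ± 72.2 RPM in silent libraries (SD, n = 4), a log2 fold of −0.69 (SE 0.27, limma, adjusted p = 0.861) with overlapping ranges. Cadps2, a priming factor of dense-core vesicles, had 47.8 ± 19.1 RPM in place and 97.8 ± 50.5 RPM in silent libraries. Its ranges overlapped as well.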

How the data were processed

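Nuclear RNA libraries were prepared with a SMART-Seq kit, per the labels' protocols. STAR, HTSeq and GRCm39 are named, without versions, by the submitters' processing notes. The sources used here give no annotation, strand setting or normalization tool, so reads of a gene and of an antisense partner cannot be told apart. The deposited values are a normalized signal, libraries in rows and genes in columns. In each gene they were whole multiples of 1 number shared by the libraries, which in 15222 of 15225 tested genes (99.98%) equalled (tolerance 0.01, log2) the gene's factor against Ezh2 by the trimmed mean of M-values (TMM). Dividing by it gave whole reads, with library totals of 14.0 to 22.4 in units of 1000000. This reading comes from the values and no label states it.

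Values were divided by TMM-scaled library depth (trims of 30% and 5%). Genes reaching a value of 10 in 4 or more libraries were tested with limma 3.58.1 in R 4.3.3 on log2(value + 1), with an intensity trend, no covariate and Benjamini-Hochberg adjustment (threshold 0.05). The scale understates the change of low genes. Exon lengths are unions of GENCODE exons and promoters are RefSeq's, both of GRCm38, matched by symbol. The read recovery and the fit were tested on simulated data. Recovery returned the true reads in 972 of 972 genes read in every library and in 936 of 936 read in 3 to 8 libraries. The fit called 5 of 50 genes changed 2-fold, 8 of 50 changed 4-fold, 21 of 50 changed 8-fold and 34 of 48 changed 16-fold. It also called 2 unchanged genes, among 16749 genes tested. A gene that is not called can therefore still differ between the groups. The changed genes were drawn from genes of widely differing spread, so the shares called are not those of the scaffold genes. Of the 9 tested scaffold genes, 8 varied less between libraries than the median tested gene. The members and lists were chosen with earlier results of these data known. All 10 members are named, as are the 3 tested genes with the smallest p of each further list and the 5 tested genes whose log2 level correlated best with the members' mean, predicted-model symbols left out. Of these, 1 gene of a further list is not reported here. Alternatives are given in the closing section.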

Additional observations from a re-analysis of the deposited data

Results flagged for a closer look

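Each of the 10 genes was looked at in both groups for a library far from the others, by Dixon's gap over the range of the group. Chance flags about 1 in 20 groups, and 3 of the 20 groups were flagged. Bsn was at 75.4 RPM in place replicate 5, below the 146 to 164 RPM of the other place libraries. Unc13c was at 14.8 RPM in silent replicate 2, where the other silent libraries had no read. The rule flags a lone library with reads at any level. Ppfia2 was at 309 RPM in silent replicate 3, below the 540.3 to 564 RPM of the other silent libraries.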

How the results depend on the processing

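None of the 9 tested scaffold genes was called under any of the 20 alternatives run. Over all genes, 0 were called in the fit reported and 221 with the level of Y-linked genes as a covariate, 20 without the intensity trend, 4 with voom on the recovered reads and 0 to 1 with 1 library left out, where the 1 call came without place replicate 1. The cause was not tested. For Unc13b the log2 fold was 0.47 with the Y-linked covariate and −1.19 with the number of genes detected as a covariate. Bsn was at 0.54 with genes detected and at 2.04 with the Y-linked covariate, where Rims2 was at 1.10, Erc2 at 0.93 and Ppfia2 at −0.63. That of Rims1 was 0.26 with the Y-linked covariate and 0.12 with the number of genes detected as a covariate. That of Erc1 was −0.37 with genes detected, −0.0069 with quantile normalization, −0.12 with voom and −0.42 without the 3 libraries set apart. With 1 library left out, the folds ranged from −0.023 to 0.073 for Unc13a, −0.54 to 0.32 for Unc13b, −0.32 to 0.024 for Rims1, −0.040 to 0.24 for Pclo and −0.48 to 0.40 for Erc1. Rims2, Bsn, Erc2 and Ppfia2 kept their sign in all 20, and Rims2 had an unadjusted p under 0.05 in 13 of them, with adjusted p by limma from 0.623 to 0.954. The median log2 fold of all genes was 0.20, against 0.01 with quantile normalization, −0.03 with genes detected and 0.00093 without the 3 libraries. Group levels kept within their SD when scaled by plain library totals. The edgeR and DESeq2 alternatives were not run, and of the tests on recovered reads voom alone was. No paired analysis was possible because the labels give the groups no shared replicate numbers. With 5 and 4 libraries, the 95% intervals of Unc13b, Rims2, Bsn and Erc1 reach log2 folds beyond 1, so this number of libraries does not bound them more closely.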
